A study of Caenorhabditis elegans with 60 samples.

Results

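The numbered col genes of Caenorhabditis elegans were followed through the mRNA of csr-1a mutants and through the small RNAs of Argonaute immunoprecipitations (IPs). Members were all protein-coding genes with a WormBase symbol made of "col-" and a number, except col-7, col-19 and col-62, and 153 of the 31106 counted genes met this rule. The rule used names and no measured value, but it was chosen with earlier results of these data known. The mRNA set held 9 libraries of L4 animals grown at 20 °C for 48 h after hatching: csr-1a(cmp135), csr-1a(cmp143) and wild-type, with 3 libraries each. In csr-1a(cmp135) a short deletion removes the start codon of the long isoform, CSR-1A, and csr-1a(cmp143) also lacks part of its promoter, while the short isoform CSR-1B is still encoded. The 50 small RNA libraries used here came from IPs, their inputs and total small RNA. CSR-1A was purified through 2xHA from tagged animals, from alg-4(ok1041); alg-3(tm1155) animals and from CSR-1A[15xAG] animals, in which arginines of the first exon are replaced by alanine, with 3 IP libraries each and HA IPs of untagged wild-type animals as control. CSR-1B was purified through 2xFLAG from animals that also carry csr-1a(cmp135), and CSR-1A+B from 2xFLAG::csr-1b animals in which the tag is on both isoforms, each at L4 and in adults at 68 h, with 2 IP libraries each. WAGO-1 was purified from GFP::3xFLAG::wago-1; mut-16::mCherry animals at L4 (2 IP libraries), and FLAG IPs of untagged wild-type animals were the control. Every library came from whole animals.

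Cuticle collagens are short secreted proteins built of Gly-X-Y triplets, in which glycine lets the chains wind around each other into a helix. The epidermis, called hypodermis in nematodes, makes a new cuticle before every molt, and each collagen gene is switched on and off at its own time in the molting cycle, with some genes kept for the adult cuticle. Argonautes such as CSR-1 and WAGO-1 bind short antisense guide RNAs, the 22G-RNAs, which RNA-dependent RNA polymerases copy from mRNA. CSR-1 is best known in the germline, where it holds guides against germline-expressed transcripts, whereas WAGO-1 acts in gene silencing, and collagen mRNAs are made in the soma.

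The mRNA libraries held 16729691 to 21093818 fragments counted on genes, with a median of 19021255, and the small RNA libraries held 570862 to 17342341 reads. The lowest was replicate 1 of the CSR-1B L4 IP. Ribosomal RNA genes took 1.11 to 61.64% of the small RNA counts and 0.7727 to 1.384% of the mRNA counts. Among the mRNA libraries, replicate 3 of csr-1a(cmp143) stood apart in the col genes, as given below, and results that rest on it are given with and without it. Sperm markers, 32 genes transcribed during the spermatogenesis of the L4 stage, summed to 2213 to 2765 FPKM in wild-type libraries, and 9 oocyte markers to 19.6 to 22.1 FPKM. FPKM, fragments scaled to exon length and sequencing depth, were computed from library sizes scaled by TMM over the 9 libraries.

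Collagen mRNA made up a larger share of the transcriptome in csr-1a mutants. The col genes held 6.408, 5.919 and 5.685% of all fragments in csr-1a(cmp135) libraries 1, 2 and 3 and 5.412, 5.624 and 3.163% in csr-1a(cmp143), against 2.181, 2.166 and 2.235% in wild-type. All 6 mutant libraries lay above the 3 wild-type ones, and replicate 3 of csr-1a(cmp143) lay nearest to them. Summed over the members, the level was 64603, 60866 and 56954 FPKM in csr-1a(cmp135) and 55593, 59432 and 31228 FPKM in csr-1a(cmp143), against 19334, 20389 and 20997 FPKM in wild-type. The number of members at 1 FPKM or more was 111 to 114 in csr-1a(cmp135) and 105 to 112 in csr-1a(cmp143), against 99 to 101 in wild-type. In whole-animal RNA, fewer cells of a type and less RNA per cell cannot be told apart.

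Gene by gene, most col mRNAs that could be tested were higher in the mutants and a smaller set was lower. A gene was called when its p from the edgeR quasi-likelihood test, adjusted by Benjamini-Hochberg over all tested genes, was 0.05 or less. In csr-1a(cmp135), 85 of 114 tested members were higher, where 21% of all tested genes were higher. In the same allele 16 members were lower, where 17.7% of all tested genes were. The median log2 fold change was 1.54 over the members and -0.01 over all tested genes. In csr-1a(cmp143), 66 of 110 tested members were higher, against a background of 12.5%, and 14 were lower, against a background of 8.77%. The medians in this allele were 1.17 for the members and -0.02 for all tested genes. The change was at least 2-fold for 72 of the 85 higher and 11 of the 16 lower members in csr-1a(cmp135), and for 60 of the 66 and 11 of the 14 in csr-1a(cmp143). Scaling by library size alone moved the median of all genes to -0.13 in csr-1a(cmp135) and -0.16 in csr-1a(cmp143), and the members' medians were then 1.42 and 1.03.

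**Figure D1:**
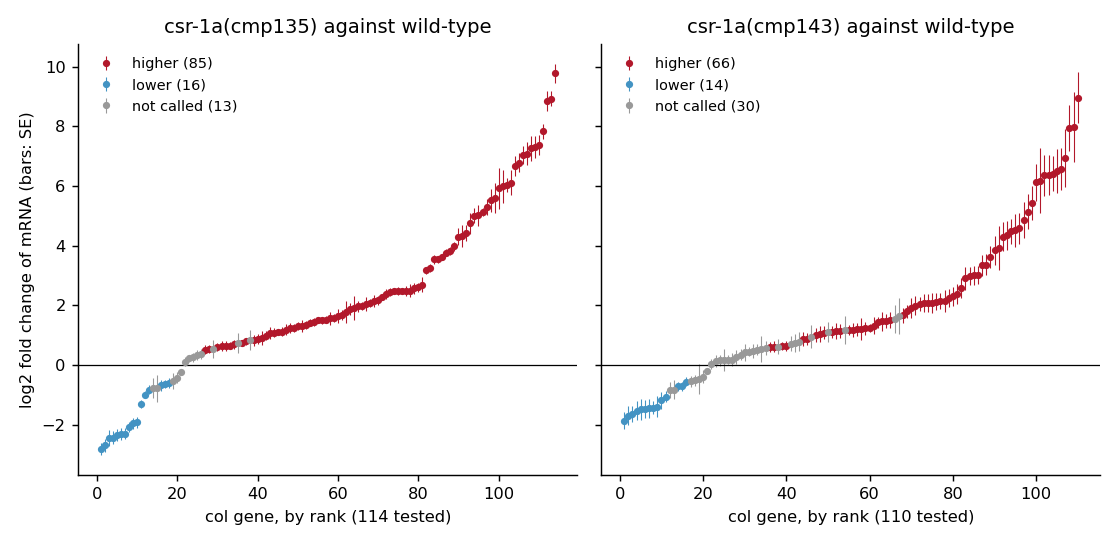
log2 fold change of mRNA (vertical axis, bars are SE) of each tested col gene in rank order (horizontal axis), for csr-1a(cmp135) on the left and csr-1a(cmp143) on the right, each against the same 3 wild-type libraries. Red points are the 85 and 66 genes called higher, blue points the 16 and 14 called lower and grey points those not called.

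The calls of the alleles never opposed each other. Both are set against the same 3 wild-type libraries, so the agreement of their calls is not independent evidence. Of the 153 members, 66 were higher in both alleles and 14 lower in both, and the share of all genes called in both was not determined. A further 15 were higher in csr-1a(cmp135) and not called in csr-1a(cmp143), and 4 (col-123, col-126, col-127 and col-143) were higher in csr-1a(cmp135) and too low to be tested in csr-1a(cmp143). Another 2, col-166 and col-169, were lower in csr-1a(cmp135) and not called in csr-1a(cmp143), 13 were tested and called in neither, and 39 were tested in neither allele. The 39 untested members did not pass the filter on low counts, and their largest value in any of the 9 libraries was 27 fragments, or 1.06 FPKM. Members that passed this filter partly did so through the libraries in which they were high, so the counts describe the tested genes and not all members. With csr-1a(cmp143) set directly against csr-1a(cmp135), 0 of 114 members were called by edgeR in either direction, as were 0% of all genes higher and 0% lower, and DESeq2 called 0 members too. An unadjusted p under 0.05 was reached by 18 members and 844 of 13898 genes in this comparison, whose median over the members was -0.31.

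The third csr-1a(cmp143) library decided part of the difference in the counts. It was the mutant library of that allele nearest to wild-type in 65 of the 66 members higher in both alleles and in 14 of the 14 lower in both. The change was larger in csr-1a(cmp135) in 65 of the 66 and in 14 of the 14. Medians were 2.50 in csr-1a(cmp135) and 2.15 in csr-1a(cmp143) for the higher set, and -2.19 and -1.44 for the lower set. With csr-1a(cmp143) set directly against csr-1a(cmp135), the median over the tested members was -0.31 with that library and -0.09 without it. For the higher and the lower set, the comparison of the alleles without that library was not determined. Without that library 82 of 115 tested members were higher in csr-1a(cmp143) and 14 lower, with a median of 1.38. Of all 14367 tested genes, 2076 were then higher and 1500 lower, against 1753 and 1234 of 14065 with it. Replicate 3 of wild-type was the wild-type library nearest to the mutants in 48 of the 66 and 9 of the 14. Leaving it out gave 89 higher and 18 lower members in csr-1a(cmp135), where 2722 and 2226 of all 14438 tested genes were. In csr-1a(cmp143) it gave 65 and 16, where 1244 and 724 of all 14343 tested genes were. Leaving out replicate 3 of csr-1a(cmp143) and of wild-type together gave 79 higher and 18 lower in csr-1a(cmp143). Of all 14164 tested genes, 1672 were then higher and 1148 lower. Without replicate 1 of csr-1a(cmp143) the lower count was 8. In 65 of the 66 higher members and 14 of the 14 lower members, no mutant library of either allele overlapped a wild-type one. These members were picked by their calls in the same libraries, so the separation is no further support. The share over all genes was not determined.

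The members with the largest rise were nearly silent in wild-type L4 animals. Fold changes are taken over the wild-type level, so a large rise and a low wild-type level are not independent. Most numbered col genes have no individually described role beyond being predicted cuticle collagens, and published roles of single members are not reviewed here. col-137 (chromosome IV, 16601480 to 16602776, minus strand) had 151, 110 and 115 FPKM in csr-1a(cmp135) and 82.8, 108 and 22.5 FPKM in csr-1a(cmp143), against 0, 0.121 and 0.289 FPKM in wild-type. Its lowest mutant library was replicate 3 of csr-1a(cmp143), still far above all wild-type libraries, which together held 10 fragments. The log2 fold change was 9.78 (SE 0.33, adjusted p = 2.3e-08) in csr-1a(cmp135) and 8.96 (SE 0.85, adjusted p = 0.00062) in csr-1a(cmp143), from the edgeR quasi-likelihood test with p adjusted by Benjamini-Hochberg, as throughout. col-119 (chromosome IV, 8978823 to 8979812, minus strand) had 104, 81.5 and 75.9 FPKM in csr-1a(cmp135) and 53.6, 76.8 and 5.24 FPKM in csr-1a(cmp143), against 0.145, 0.0921 and 0.283 FPKM in wild-type. The third csr-1a(cmp143) library was again the lowest mutant one, and the groups did not overlap, with log2 fold changes of 8.93 (SE 0.25) in csr-1a(cmp135) and 7.98 (SE 1.18) in csr-1a(cmp143). col-81 (chromosome II, 11012397 to 11013820, minus strand) reached 1406, 1130 and 1043 FPKM in csr-1a(cmp135) and 948, 788 and 161 FPKM in csr-1a(cmp143), against 1.55, 1.90 and 4.25 FPKM in wild-type. Its fold change was 465 in csr-1a(cmp135) (adjusted p = 3.0e-08) and 247 in csr-1a(cmp143) (adjusted p = 0.00068).

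In col-129, col-139 and col-140, abundant in the mutants and scarce in wild-type, every mutant library lay above every wild-type library. col-129 had 1590, 1266 and 1152 FPKM in csr-1a(cmp135) and 1142, 985 and 248 FPKM in csr-1a(cmp143), against 3.58, 7.95 and 14.7 FPKM in wild-type. col-139 had 1475, 1189 and 1107 FPKM in csr-1a(cmp135) and 1079, 940 and 223 FPKM in csr-1a(cmp143), against 3.66, 8.38 and 11.8 FPKM in wild-type. col-140 had 1338, 1064 and 984 FPKM in csr-1a(cmp135) and 924, 899 and 212 FPKM in csr-1a(cmp143), against 4.14, 6.87 and 13.9 FPKM in wild-type. Their fold changes were 153, 159 and 136 in csr-1a(cmp135) and 91.2, 94.6 and 81.9 in csr-1a(cmp143), in the order col-129, col-139 and col-140. In all of them the third library was the lowest of csr-1a(cmp143) and the highest of wild-type. The neighbours col-178 and col-179 on chromosome X rose 131-fold and 229-fold in csr-1a(cmp135) and 83-fold and 124-fold in csr-1a(cmp143). col-152 rose 110-fold in csr-1a(cmp135) and 85.7-fold in csr-1a(cmp143), and col-8 rose 167-fold and 72.3-fold. Of the 66 members higher in both alleles, 19 were at least 16-fold higher in both, and the share of all genes was not determined.

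The 14 members lower in both alleles changed less. col-98 (chromosome III, 13018935 to 13020226, plus strand) had 36.2, 46.5 and 36.7 FPKM in csr-1a(cmp135) and 73.0, 55.1 and 131 FPKM in csr-1a(cmp143), against 352, 295 and 191 FPKM in wild-type. The third libraries of csr-1a(cmp143) and of wild-type lay closest together without overlapping, and the log2 fold change was -2.81 (SE 0.21, adjusted p = 3.2e-06) in csr-1a(cmp135) and -1.69 (SE 0.33, adjusted p = 0.0093) in csr-1a(cmp143). col-149 (chromosome V, 10291697 to 10292869, minus strand) had 52.7, 53.8 and 46.8 FPKM in csr-1a(cmp135) and 59.7, 78.1 and 108 FPKM in csr-1a(cmp143), against 352, 224 and 192 FPKM in wild-type. col-103 (chromosome IV, 762416 to 763680, minus strand) had 45.6, 60.4 and 49.3 FPKM in csr-1a(cmp135) and 91.3, 79.9 and 178 FPKM in csr-1a(cmp143), against 409, 366 and 234 FPKM in wild-type. For both genes the lowest wild-type library was the third and still exceeded every mutant library. col-42 had 82.4, 93.8 and 67.5 FPKM in csr-1a(cmp135) and 155, 85.3 and 228 FPKM in csr-1a(cmp143), against 510, 513 and 297 FPKM in wild-type. The neighbours col-46 and col-47 on chromosome I fell 5.09-fold and 4.26-fold in csr-1a(cmp135) and 2.70-fold and 3.64-fold in csr-1a(cmp143). col-41, col-43, col-128 and col-176 fell 3.80-fold to 5.46-fold in csr-1a(cmp135) and 2.28-fold to 2.77-fold in csr-1a(cmp143). The csr-1a(cmp143) call of col-41, col-42, col-103 and col-176 was lost when 1 library was left out, replicate 1 of csr-1a(cmp143) among others.

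**Figure D2:**
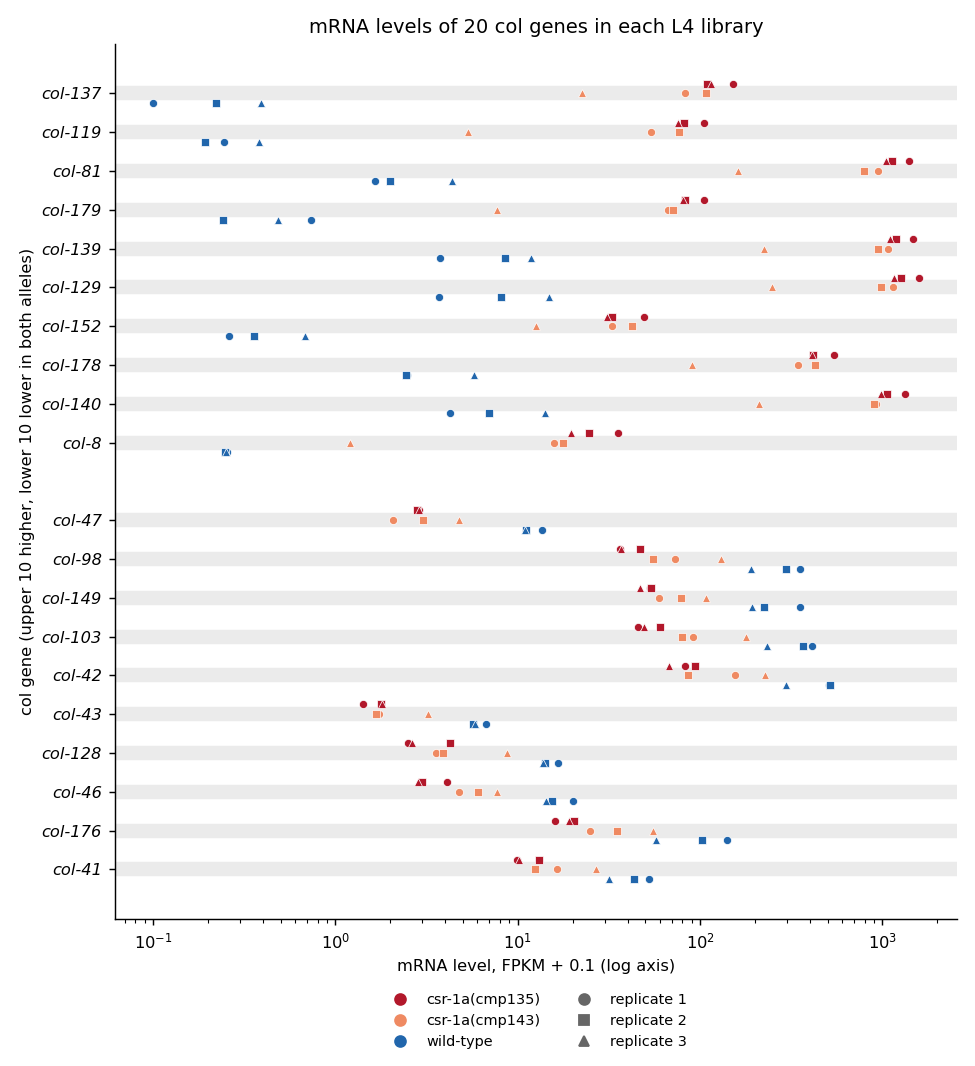
mRNA level of 20 col genes (rows) in every L4 library, on a log axis of FPKM with a small constant added so that 0 can be drawn. Red points are csr-1a(cmp135), orange points csr-1a(cmp143) and blue points wild-type, and the marker shape gives the replicate. In the upper 10 genes all mutant points lie right of the blue ones, for col-137 at 22.5 to 151 FPKM against 0 to 0.289 FPKM, and in the lower 10 they lie left of them, with the orange triangle, replicate 3 of csr-1a(cmp143), nearest to wild-type.

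In csr-1a(cmp135), all 5 members most abundant in wild-type rose less than the median of the tested members. In csr-1a(cmp143), only col-73 and col-38 of them did. The ranking and the fold changes use the same wild-type libraries, so level and change are not independent. col-73 had 3659, 3914 and 3521 FPKM in csr-1a(cmp135) and 3426, 3820 and 2606 FPKM in csr-1a(cmp143), against 1795, 2112 and 2527 FPKM in wild-type. col-38 had 1900, 1976 and 1885 FPKM in csr-1a(cmp135) and 1937, 2164 and 1496 FPKM in csr-1a(cmp143), against 1063, 1164 and 1453 FPKM in wild-type. In both genes the third csr-1a(cmp143) library lay just above the highest wild-type library. Fold changes were 1.73 and 1.57 in csr-1a(cmp135) for col-73 and col-38, and 1.54 and 1.53 in csr-1a(cmp143), where either call was lost when 1 of several libraries was left out. col-125, col-71 and col-138, next in wild-type level, rose 2.83-fold, 2.83-fold and 2.38-fold in csr-1a(cmp135) and 2.35-fold, 2.69-fold and 2.29-fold in csr-1a(cmp143). Of the 66 members higher in both alleles, 45 had a wild-type mean under 100 FPKM and 21 a mean of 100 FPKM or more. Among the 14 lower in both these numbers were 6 and 8.

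Members that lie side by side did not always move together. On chromosome X, col-167, col-168 and col-170 were higher in csr-1a(cmp135), with log2 fold changes of 0.64, 0.84 and 0.65, while col-169 between them (6329160 to 6330127) was lower at -0.68. col-169 had 147, 143 and 138 FPKM in csr-1a(cmp135), against 279, 254 and 152.5 FPKM in wild-type, and replicate 3 of wild-type lay just above the mutant values. None of these 4 genes was called in csr-1a(cmp143). Of the 22-base stretches of their exons, 77.68% (col-167), 91.47% (col-168), 68.53% (col-169) and 75.9% (col-170) occur elsewhere in the genome. Their separate values are therefore uncertain. On chromosome II, col-79 lies just ahead of col-39 and col-80 on the same strand. col-79 had 110, 150 and 121 FPKM in csr-1a(cmp135), against 171, 191 and 232 FPKM in wild-type, a log2 fold change of -0.64 (SE 0.14), while col-39 and col-80 were higher at 1.57 (SE 0.22) and 2.05 (SE 0.24).

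A change was not called in either allele for 13 tested members: col-10, col-17, col-53, col-54, col-64, col-75, col-109, col-131, col-132, col-141, col-142, col-147 and col-172. Their log2 fold changes ran from -0.78 to 0.83 in csr-1a(cmp135) and from -0.84 to 0.54 in csr-1a(cmp143), and their wild-type means from 0.641 to 748 FPKM. The 15 members called higher in csr-1a(cmp135) alone (col-3, col-34, col-39, col-48, col-69, col-80, col-101, col-117, col-144, col-150, col-160, col-167, col-168, col-170 and col-187) had log2 fold changes of 0.52 to 2.05 in that allele. In csr-1a(cmp143) their values were all positive, 0.14 to 1.64, and the difference between the alleles was not called for any of them. col-99, which in C. elegans encodes a transmembrane collagen rather than a secreted cuticle collagen, was lower in both alleles, with 6.09, 8.49 and 7.66 FPKM in csr-1a(cmp135) and 8.17, 7.92 and 10.7 FPKM in csr-1a(cmp143), against 13.2, 15.8 and 15.1 FPKM in wild-type. Its groups did not overlap, and the log2 fold change was -0.99 (SE 0.13) in csr-1a(cmp135) and -0.71 (SE 0.14) in csr-1a(cmp143).

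The coding sequences carry the collagen repeat in members that moved in either direction. By the Ensembl annotation of WBcel235, all members except col-17 have a run of 10 or more Gly-X-Y triplets, and the longest run per gene has a median of 21 triplets, up to 155 in col-135. The annotated reading frame of col-17 holds 2 glycine codons. Glycine made up a median of 20.8% of codons. The stretches printed here, 10 triplets each from named genes of either direction, show this shared repeat with every glycine codon at the start of a triplet in capitals. Those of col-137 and col-119 (higher in the mutants) are from the minus strand at chrIV:16601614-16601703 and chrIV:8979091-8979180, that of col-98 (lower) from the plus strand at chrIII:13019929-13020018 and that of col-149 (lower) from the minus strand at chrV:10292142-10292231.
col-137: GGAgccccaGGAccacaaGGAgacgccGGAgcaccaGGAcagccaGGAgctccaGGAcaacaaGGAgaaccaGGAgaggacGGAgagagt
col-119: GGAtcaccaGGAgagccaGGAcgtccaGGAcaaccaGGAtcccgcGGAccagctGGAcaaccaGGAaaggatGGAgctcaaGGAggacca
col-98: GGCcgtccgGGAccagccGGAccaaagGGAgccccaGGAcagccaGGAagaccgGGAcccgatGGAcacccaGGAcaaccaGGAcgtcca
col-149: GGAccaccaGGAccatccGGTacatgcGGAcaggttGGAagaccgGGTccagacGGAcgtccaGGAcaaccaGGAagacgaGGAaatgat

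This likeness bears on which counts can be assigned to 1 gene. A stretch of 22 bases of exon was looked for elsewhere in the genome: 19 members had no such stretch in common with any other place, the median share of a member's exon stretches found elsewhere was 6.17%, and 59 members had more than 10%. For col-126 and col-127 the share was 100%, for col-3 97.96%, for col-117 97.64% and for col-13 93.73%, so their values are uncertain. col-12 and col-13 share an unbroken run of 569 bases and col-10 and col-144 one of 662 bases. col-12 had 778, 693 and 644 FPKM in csr-1a(cmp135) and 596, 517 and 240 FPKM in csr-1a(cmp143), against 55.7, 58.8 and 57.3 FPKM in wild-type. col-13 had 608, 499 and 484 FPKM in csr-1a(cmp135) and 418, 465 and 175 FPKM in csr-1a(cmp143), against 60.6, 60.8 and 55.2 FPKM in wild-type. Both rose in every mutant library, 12.3-fold and 9.03-fold in csr-1a(cmp135) and 7.90-fold and 6.0-fold in csr-1a(cmp143), and their separate levels cannot be told apart where they are identical. By annotation, 37 members overlap another gene, 16 of them a protein-coding gene on the opposite strand, such as col-111 with psr-1 and col-90 with let-754.

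The promoters of members that moved in either direction are shown for a comparison of their letters. The windows hold 150 bases before the gene start of the Ensembl annotation of WBcel235, for 3 named higher genes (col-137, col-119 and col-81) and 3 named lower ones (col-98, col-149 and col-103). The counts used another annotation of the same build, whose gene bounds are the ones given with the values, and by those bounds the windows of col-119, col-81, col-98 and col-103 reach into the gene. Capitals mark, on either strand, the TATA box TATAAA and its longer form TATATAA. They also mark AGATAA, the core bound by GATA factors, and AGGTCA, the core bound by many nuclear hormone receptors. TATATAA was added to the search after these windows had been read, and a window where both TATA forms overlap counts for each. The positions are chrIV:16602777-16602926 for col-137, chrIV:8979796-8979945 for col-119, chrII:11013768-11013917 for col-81, chrIII:13018858-13019007 for col-98, chrV:10292870-10293019 for col-149 and chrIV:763679-763828 for col-103, on the plus strand for col-98 and on the minus strand for the others.
col-137 (higher): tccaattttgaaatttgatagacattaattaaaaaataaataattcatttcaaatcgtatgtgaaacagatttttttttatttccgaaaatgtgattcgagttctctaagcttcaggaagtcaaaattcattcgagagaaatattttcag
col-119 (higher): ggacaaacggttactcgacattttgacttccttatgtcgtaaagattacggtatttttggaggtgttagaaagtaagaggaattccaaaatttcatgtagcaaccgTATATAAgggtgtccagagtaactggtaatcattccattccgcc
col-81 (higher): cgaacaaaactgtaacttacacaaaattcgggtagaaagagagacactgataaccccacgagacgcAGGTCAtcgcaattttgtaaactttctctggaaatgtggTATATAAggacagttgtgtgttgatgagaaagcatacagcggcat
col-98 (lower): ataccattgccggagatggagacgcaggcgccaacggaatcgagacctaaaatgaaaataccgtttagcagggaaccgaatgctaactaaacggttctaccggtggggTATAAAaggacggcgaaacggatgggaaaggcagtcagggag
col-149 (lower): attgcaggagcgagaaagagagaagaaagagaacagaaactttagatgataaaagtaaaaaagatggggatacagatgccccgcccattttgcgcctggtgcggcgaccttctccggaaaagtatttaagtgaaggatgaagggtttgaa
col-103 (lower): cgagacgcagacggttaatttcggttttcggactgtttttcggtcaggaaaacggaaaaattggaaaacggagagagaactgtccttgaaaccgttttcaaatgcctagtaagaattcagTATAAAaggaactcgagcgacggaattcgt
Over windows from 250 bases before to 50 after the gene start, TATAAA stood in 66% of the members' promoters, in 59.1% of those higher in both alleles and in 71.4% of those lower in both, against 37.9% of 19973 protein-coding genes. TATATAA stood in 19% of the members' promoters, in 25.8% of those of the higher members and 7.14% of the lower ones (1 of 14), against 8.43% of all genes. AGATAA stood in 25.5% of the members and 21.2% of all genes, and AGGTCA in 13.7% of the members and 8.27% of all genes. By direction, AGATAA stood in 28.8% of the higher and 21.4% of the lower members, and AGGTCA in 13.6% of the higher and 28.6% of the lower ones (4 of 14). A match describes letters in a window and not a site in use.

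Other genes of the cuticle and of developmental timing moved in the same libraries. The gene lists used for them and for the markers below were also chosen with earlier results of these data known. The 3 adult collagens that the rule leaves out were higher in both alleles: col-19 had 609, 488 and 474 FPKM in csr-1a(cmp135) and 416, 456 and 98.2 FPKM in csr-1a(cmp143), against 0.936, 1.54 and 3.45 FPKM in wild-type. Summed with col-7 and col-62 they gave 652 to 859 FPKM in csr-1a(cmp135) and 115 to 601 FPKM in csr-1a(cmp143), against 1.22 to 3.54 FPKM in wild-type. The lowest mutant sum was that of the third csr-1a(cmp143) library. The named body-shape collagens (dpy, rol, sqt, bli, ram and lon-3 genes) went mostly the other way, with 14 lower and 4 higher of 19 tested in csr-1a(cmp135) and 12 lower and 3 higher in csr-1a(cmp143). dpy-10, a cuticle collagen gene of the furrows, had 16.7, 29.8 and 23 FPKM in csr-1a(cmp135) and 26.6, 29.5 and 52.9 FPKM in csr-1a(cmp143), against 138, 120 and 96.3 FPKM in wild-type. ram-2 rose 1.83 on the log2 scale in csr-1a(cmp135) and 1.47 in csr-1a(cmp143).

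Of 19 molting genes, 15 were lower and 2 higher in either allele, with medians of -1.69 in csr-1a(cmp135) and -1.22 in csr-1a(cmp143). Their summed level was 517 to 655 FPKM in csr-1a(cmp135) and 680 to 937 FPKM in csr-1a(cmp143), against 1523 to 1933 FPKM in wild-type, and the third library was the highest of csr-1a(cmp143). mlt-11, a protease inhibitor needed for molting, had 5.61, 9.90 and 13.5 FPKM in csr-1a(cmp135) and 15.6, 17.5 and 40.1 FPKM in csr-1a(cmp143), against 150, 107 and 90.2 FPKM in wild-type. Of 12 tested epidermal and molting transcription factors, 11 were lower in csr-1a(cmp135) and 9 in csr-1a(cmp143), and none was higher in either. nhr-23, a nuclear hormone receptor that drives larval molts, had 2.40, 1.97 and 2.02 FPKM in csr-1a(cmp135) and 2.53, 2.75 and 5.92 FPKM in csr-1a(cmp143), against 11.3, 10.3 and 6.61 FPKM in wild-type. Of 16 genes for collagen processing, 6 were lower and 3 higher in csr-1a(cmp135) and 4 and 2 in csr-1a(cmp143). phy-2, a subunit of the prolyl hydroxylase that stabilises collagen helices, was lower in both alleles (-0.81, SE 0.22, and -0.73, SE 0.15).

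Oocyte markers and most intestine markers rose with the collagens, the yolk protein genes vit-2 to vit-6 most strongly among the latter. All 9 oocyte markers were higher in csr-1a(cmp135) and 7 in csr-1a(cmp143), none lower, and their summed level was 139 to 213 FPKM in csr-1a(cmp135) and 47.8 to 168 FPKM in csr-1a(cmp143), with the third library lowest, against 19.6 to 22.1 FPKM in wild-type. Of 10 intestine markers, 8 were higher in each allele and none lower, among them the yolk protein gene vit-5, which had 17.2 to 25.5 FPKM in csr-1a(cmp135) and 5.72 to 36 FPKM in csr-1a(cmp143), against 0.0671 FPKM or less in wild-type. Their summed level was 3184 to 3709 FPKM in csr-1a(cmp135) and 3347 to 3698 FPKM in csr-1a(cmp143), against 2529 to 2906 FPKM in wild-type. Of 32 sperm markers, 1 was higher and 1 lower in csr-1a(cmp135) and 2 were lower in csr-1a(cmp143), with sums of 1936 to 2602 FPKM in csr-1a(cmp135) and 927 to 2260 FPKM in csr-1a(cmp143), against 2213 to 2765 FPKM in wild-type. Of 7 muscle markers 2 were lower in csr-1a(cmp135) and none called in csr-1a(cmp143), and of 8 neuron markers 5 and 1 were lower. Basement membrane collagens, made outside the epidermis, had 1 of 3 higher in csr-1a(cmp135) and none called in csr-1a(cmp143). In none of these lists was every gene at 0 in any group of libraries. The part of these lists in the result for the col genes was not tested.

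**Figure D3:**
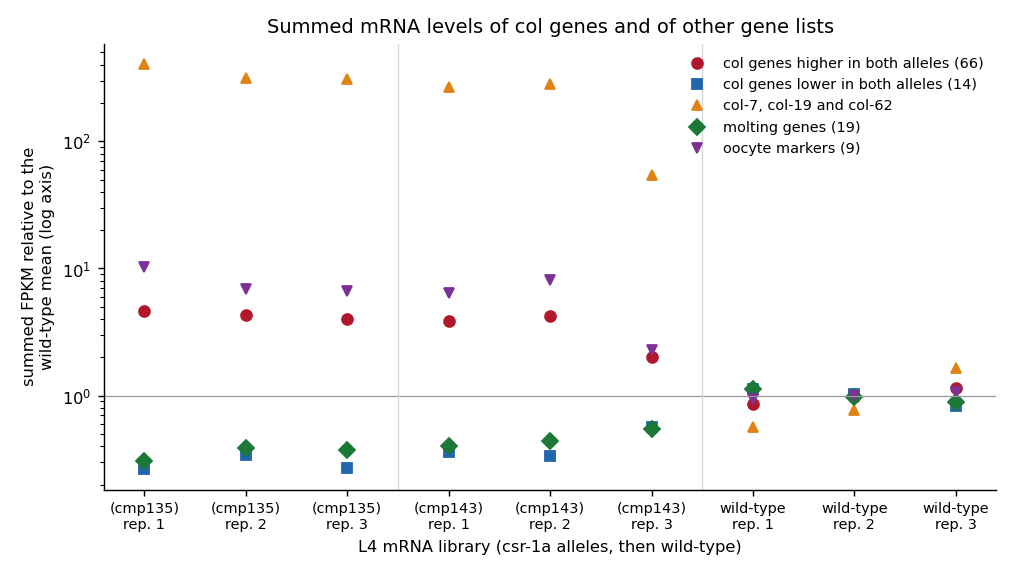
Summed FPKM of 5 gene groups in each L4 mRNA library, divided by the mean of the 3 wild-type libraries (vertical log axis, so that 1 is the wild-type mean). The 66 col genes higher in both alleles, the adult collagens and the oocyte markers lie above 1 in all 6 mutant libraries, while the 14 col genes lower in both alleles and the molting genes lie below 1. Replicate 3 of csr-1a(cmp143) lies nearest to wild-type in all 5 groups, with a sum of 24605 FPKM for the 66 higher col genes, against 10548 to 14070 FPKM in wild-type.

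Small RNA counts on the col genes were low and concentrated in few members. The counting used no strand, so antisense 22G-RNAs and sense fragments of collagen mRNA cannot be told apart in any value that follows. RPM are counts scaled to 1000000 counts on genes. In the 2 libraries of wild-type total small RNA at L4, the members summed to 1420 and 1350 RPM, 11 of the 153 had a mean of 10 RPM or more, and 102 had less than 1 RPM. col-71, col-111 and col-157 together held 63.7% of this sum, and the leading 7 members held 82.8%. The small RNA level did not follow the mRNA level closely: Spearman's rho over the 153 members between mean RPM and wild-type mean FPKM was 0.338, given as a description, since both values of a gene share its length and its copies. col-45, also among the 5 highest in small RNA, had a wild-type mRNA mean of 0.273 FPKM and was not tested in either allele.

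The members were not enriched in any CSR-1A IP, with 1 exception in the CSR-1A[15xAG] strain. A member counted as enriched when it was called higher, at least 2-fold, at 10 RPM or more in the IP, and did not meet the same rule in the control IP of that antibody, and it counted as depleted when it was called lower, at least 2-fold, with 10 RPM or more in the input. In the CSR-1A L4 IP, 0 of 102 tested members were enriched, where 14.1% of all genes were, and 2 (col-45 and col-186) were depleted, where 4.62% were. For this and the other CSR-1 IPs with 0 enriched members, the count was also 0 at an unadjusted p under 0.05 and with DESeq2 in place of edgeR. The median was -0.46 for the members and 0.25 for all genes. The members summed to 1392, 3720 and 2047 RPM in the CSR-1A IPs, against 3191 and 2929 RPM in the 2 inputs. The second IP library lay above both inputs while the other IP libraries lay below them. Without that second library 40 members were depleted, and the share of all genes was not determined. In the IP from alg-4; alg-3 animals, 0 of 91 were enriched, where 14% of all genes were, and 57 were depleted, where 14.8% were, and the median was -1.47 for the members and -0.09 for all genes. With library size alone as scaling the depleted count was 2, and the median of all genes moved to 0.81.

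In the CSR-1A[15xAG] IP, 61 of 104 tested members were depleted, where 12.4% of all genes were, with a median of -3.47 for the members and 0.03 for all genes. The members summed to 1259, 1127 and 1350 RPM in these IPs, against 4971, 4043 and 3868 RPM in the inputs, so that no IP library overlapped an input. Ribosomal RNA took 7.136 to 7.536% of the counts in the IPs, against 41.22 to 61.64% in the inputs, and its part in the result was not tested. Library size alone moved the median of all genes to 1.13 and that of the members to -2.34. col-76 was the 1 enriched member, where 20.6% of all genes were enriched, at 13.3, 9.83 and 10.4 RPM in the IPs, against 1.85, 1.75 and 0.519 RPM in the inputs. Its log2 fold change was 1.94 (SE 0.32, adjusted p = 0.00014, edgeR with Benjamini-Hochberg), on the TMM scale. It shares 0.33% of its exon stretches with other places, and its mRNA was higher in both csr-1a alleles. In the CSR-1A L4 IP, the same gene had 3.98, 5.04 and 4.46 RPM, against 3.78 and 0.79 RPM in the inputs, and was not called. It was called higher but below 2-fold in the CSR-1A+B L4 IP, at 2.92 and 3.53 RPM, against 1.25 and 1.31 RPM in the inputs, and was called higher in the FLAG control, at 4.95, 6.10 and 13.4 RPM, against 1.84, 3.45 and 3.01 RPM.

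The FLAG IPs of CSR-1B and CSR-1A+B were also low in col genes. In the CSR-1B L4 IP, 0 of 89 tested members were enriched, where 27.6% of all genes were, and 25 were depleted, where 25.6% of all genes were, which is close to the members' share. The members summed to 1213 and 952 RPM in these IPs, against 3157 and 3215 RPM in the inputs. The medians were -2.71 for the members and -1.25 for all genes, and library size alone moved them to -1.62 and -0.17. In the CSR-1A+B L4 IP, 0 of 81 were enriched, where 31.7% of all genes were, and 22 were depleted, where 20.7% were. The medians there were -1.12 for the members and -0.07 for all genes. In adults, 0 of 75 were enriched and 36 depleted in the CSR-1B IP, where 29.7% and 17.6% of all genes were, with medians of -2.01 for the members and -0.38 for all genes. In the adult CSR-1A+B IP, 0 of 70 were enriched and 32 depleted, where 25.3% and 12.4% of all genes were, with medians of -1.40 for the members and -0.15 for all genes. Without replicate 1 of this IP the depleted count was 16. Members summed to 642 and 744 RPM in the adult CSR-1B IPs, against 2628 and 2715 RPM in their inputs, and to 883 and 1373 RPM in the adult CSR-1A+B IPs, against 2785 and 2848 RPM in theirs.

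col-90 went the other way. This gene overlaps let-754, an adenylate kinase gene on the opposite strand, so its reads may belong to either gene. It had 35 and 35.5 RPM in the CSR-1B L4 IPs, against 6.82 and 6.90 RPM in the inputs, with a log2 fold change of 1.26 (SE 0.24, adjusted p = 0.00016, edgeR with Benjamini-Hochberg) on the TMM scale, where all genes have a median of -1.25. It was also called higher in adult CSR-1B IPs at 5.19 and 5.22 RPM, against 2.18 and 2.29 RPM in the inputs, and in adult CSR-1A+B IPs at 3.48 and 4.36 RPM, against 2.43 and 2.01 RPM. The FLAG control IP was higher as well, at 36.1, 24.7 and 20.4 RPM, against 12.5, 10.4 and 7.84 RPM in its inputs, which removed col-90 from the enriched members. In the WAGO-1 IP it was depleted, with 1.57 and 2.06 RPM, against 18.4 and 17.4 RPM in the inputs.

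**Figure D4:**
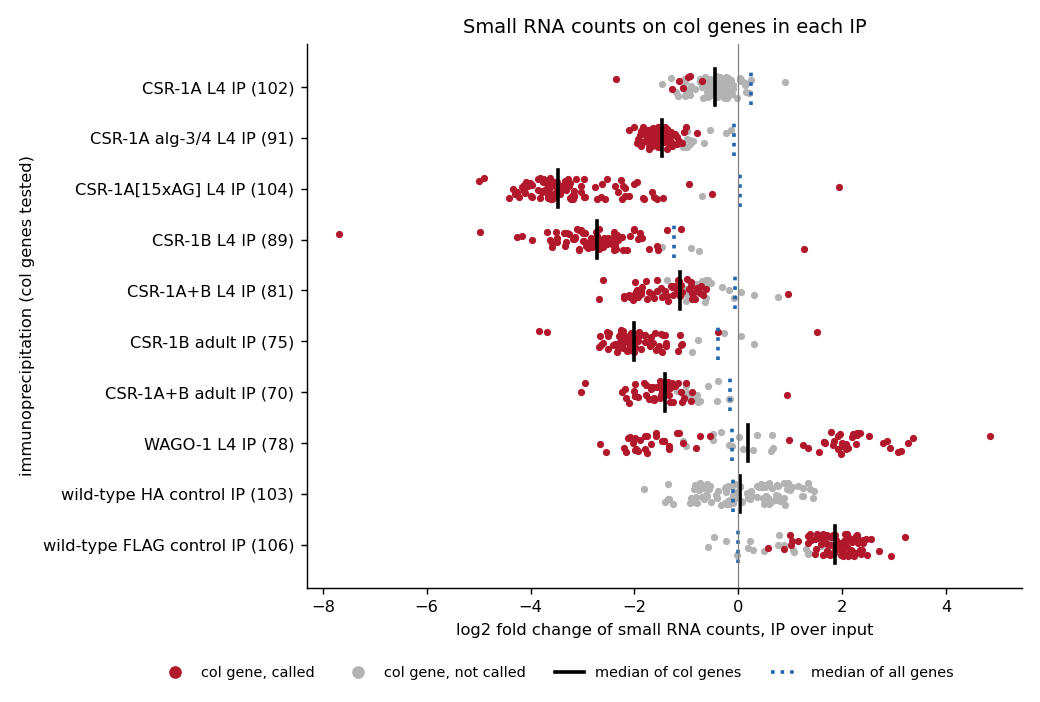
log2 fold change of small RNA counts, IP over input (horizontal axis), of every tested col gene (points, red where called) in each of 10 IPs (rows, with the number of tested col genes). Black bars are medians of the col genes and blue dotted bars medians of all genes. The black bar lies left of the blue one in the 7 CSR-1 IPs, at -3.47 in CSR-1A[15xAG], lies near it in WAGO-1 and the HA control, and lies right of it in the FLAG control at 1.86.

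WAGO-1 carried small RNAs of a few members. In its IP 9 of 78 tested members were enriched, where 20.3% of all genes were, and 11 were depleted, where 28.9% of all genes were. The enriched ones were col-45, col-56, col-60, col-71, col-72, col-111, col-154, col-157 and col-186, and 7 more met the thresholds but also did so in the FLAG control. col-111 had 714 and 762 RPM in the WAGO-1 IPs, against 223 and 230 RPM in the inputs, with a log2 fold change of 2.27 (SE 0.08). col-157 had 603 and 616 RPM in the IPs, against 284 and 294 RPM in the inputs, a log2 fold change of 1.64 (SE 0.08). col-71 had 293 and 297 RPM in the IPs, against 102 and 105 RPM in the inputs, a log2 fold change of 2.07 (SE 0.10). These are the 3 members with most small RNA in total wild-type RNA. col-45, with 241 and 242 RPM in the IPs against 80.4 and 76.1 RPM in the inputs, is the member with abundant small RNA and scarce mRNA named above.

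The 3 leading members had smaller or opposite ratios in the other IPs. col-71 was depleted in the CSR-1B L4 IPs, at 378 and 300 RPM, against 997 and 1084 RPM in the inputs, and col-111 likewise, at 183 and 161 RPM, against 458 and 518 RPM. col-157 shares 66.59% of its exon stretches with other places and col-154 78.23%, mostly with each other, whereas col-71 and col-111 share 2.57% and 0.76%. col-111 overlaps psr-1, which in C. elegans encodes a receptor used in cell corpse engulfment, on the opposite strand. The mRNA of col-111 was 171, 162 and 129 FPKM in csr-1a(cmp135) and 159, 134 and 86.5 FPKM in csr-1a(cmp143), against 42.3, 61.5 and 82.1 FPKM in wild-type. Replicate 3 of csr-1a(cmp143) was just above the highest wild-type library, and it was called higher in both alleles.

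The untagged controls did not behave alike on the col genes. In the HA control IP 0 of 103 tested members were enriched, where 1.44% of all genes were, and 0 were depleted, where 0.395% were. At an unadjusted p under 0.05 from edgeR these counts were 2 and 1, and with DESeq2 they were 2 and 0. This rested on which of its 2 inputs was used: 20 members were enriched without input replicate 3, and 31 were depleted without input replicate 1. Shares of all genes without these inputs were not determined. The members summed to 3660, 4230 and 4761 RPM in the HA control IPs, against 2420 and 4618 RPM in the inputs, so that the groups overlapped. In the FLAG control IP 77 of 106 tested members were enriched, where 4.57% of all genes were, and 0 were depleted, where 0.571% were (0 also at an unadjusted p under 0.05 and with DESeq2), with a median of 1.86 for the members and 0.00 for all genes. The members summed to 6663, 9224 and 8388 RPM in these IPs, against 2499, 3293 and 2985.5 RPM in the inputs, with no overlap, and the enriched count was 49 without input replicate 3. col-185 had 8.34, 14.1 and 11.1 RPM in the FLAG control IPs, against 1.43, 1.21 and 0.859 RPM in the inputs, the largest change there with a log2 fold change of 3.21 (SE 0.38). In every FLAG IP of a tagged Argonaute, a member that met the enrichment rule in this control could not count as enriched.

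Inputs of different stages differed widely, and members split between them. Between adult and L4 inputs of the CSR-1B strain, 21 of 93 tested members were higher and 65 lower in adults, where 38.2% and 39.2% of all genes were. In the CSR-1A+B strain 25 of 92 were higher and 58 lower, where 41.8% and 41.4% of all genes were. The members' medians were -1.21 and -1.17, against -0.05 and -0.06 for all genes, with the CSR-1B strain given before CSR-1A+B. Of 89 members tested in both strains, which share no library, 21 were higher in adults in both, 56 lower in both and 0 called in opposite directions. Pearson's r between the strains was 0.972 over these 89 members, a description over genes that share their length and base composition. Library size alone moved the median of all genes to 0.51 in the CSR-1B and 0.28 in the CSR-1A+B strain.

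Of the 10 named members with the largest rise in csr-1a mRNA, 7 were higher in adult inputs of both strains (col-8, col-81, col-119, col-129, col-140, col-178 and col-179). col-139 was lower in both, with 26.2 and 30.2 RPM in adult inputs of the CSR-1B strain, against 31.02 and 32.1 RPM at L4, and 25.9 and 28.8 RPM in adult inputs of the CSR-1A+B strain, against 29.04 and 36.7 RPM at L4. The RPM of col-139 differed little between the stages, and its calls were made on the TMM scale. col-137 and col-152 were not tested or not called. col-178 had 31.1 and 41.2 RPM in adult inputs of the CSR-1B strain, against 3.07 and 1.5 RPM at L4, and 54.6 and 57.4 RPM in adult inputs of the CSR-1A+B strain, against 1.11 and 1.12 RPM at L4. col-119 had 54.0 and 80.7 RPM in adult inputs of the CSR-1B strain, against 5.67 and 3.33 RPM at L4, and 107 and 113.2 RPM in adult inputs of the CSR-1A+B strain, against 2.22 and 2.62 RPM at L4. No adult input overlapped an L4 input for col-178 or col-119. col-8 had 22.5 and 31.3 RPM in adults of the CSR-1B strain, against 2.59 and 0.831 RPM at L4, and 38.3 and 42.4 RPM in adults of the CSR-1A+B strain, against 0.973 and 0.561 RPM at L4. col-106 and col-181 had the largest rise in the CSR-1B strain, with log2 fold changes of 3.74 (SE 0.25) and 3.46 (SE 0.27). The largest falls were those of col-175, with 0.122 and 0.518 RPM in CSR-1A+B adult inputs against 10.6 and 14.2 RPM at L4, and of col-170, with 0.624 and 0.429 RPM in CSR-1B adult inputs against 9.80 and 5.49 RPM at L4.

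Set beside the mRNA, the 21 members higher in adult inputs of both strains had a median log2 fold change of 5.29 in csr-1a(cmp135) (21 tested) and 4.72 in csr-1a(cmp143) (20 tested). The 56 members lower in adult inputs of both strains had medians of 1.40 (52 tested) and 1.16 (52 tested). Of the 21, 15 were higher and 1 lower in both csr-1a alleles, and of the 56, 34 were higher and 4 lower. No adult mRNA was measured in the libraries used here, and whether these small RNA counts are guides or mRNA fragments was not tested.

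**Figure D5:**
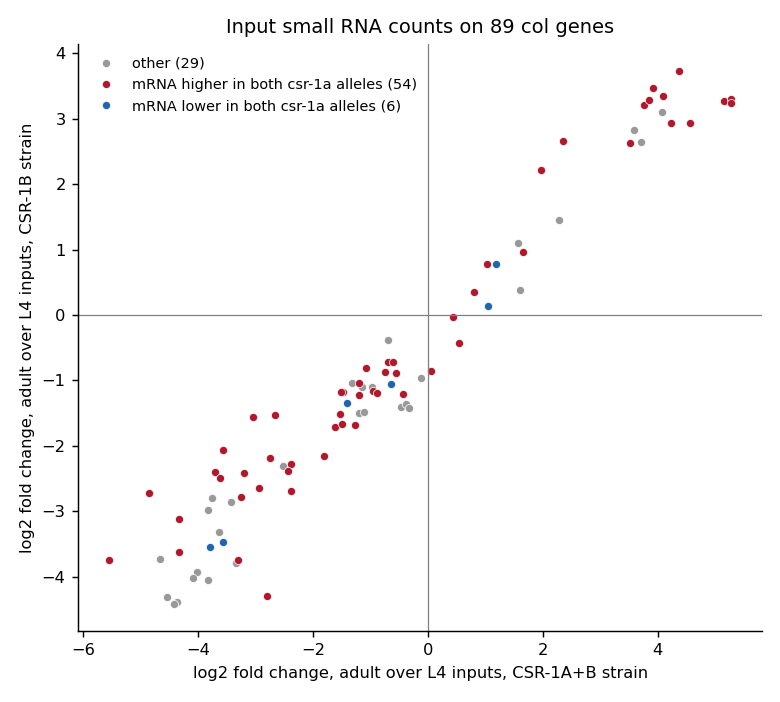
log2 fold change of input small RNA counts, adult over L4, in the CSR-1A+B strain (horizontal axis) and the CSR-1B strain (vertical axis) for 89 col genes tested in both. Red points are genes whose mRNA was higher in both csr-1a alleles, blue points those lower in both and grey points the others. The points follow 1 line through both quadrants, with 21 genes called higher and 56 called lower in both strains.

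At L4 the input of the CSR-1B strain, which carries csr-1a(cmp135), differed from that of the CSR-1A+B strain in a minority of members, all lower by edgeR. Of 88 tested members 0 were higher by edgeR (6 at an unadjusted p under 0.05 and 0 with DESeq2), where 2.18% of all genes were, and 11 were lower, where 4.27% were, with a median of -0.10 for the members and -0.01 for all genes. The lower ones were col-14, col-17, col-38, col-48, col-49, col-63, col-73, col-77, col-109, col-138 and col-175. col-138 had 8.45 and 4.49 RPM in CSR-1B inputs, against 21.7 and 14 RPM in CSR-1A+B inputs, and col-14 had 5.95 and 3.33 RPM, against 13.2 and 11.4 RPM. Groups did not overlap in either gene, with log2 fold changes of -1.42 (SE 0.29) and -1.35 (SE 0.26). The count of lower members was 21 without replicate 1 of the CSR-1B inputs and 6 without replicate 1 of the CSR-1A+B inputs. In the mRNA of csr-1a(cmp135), the same allele, 9 of these 11 members (all except col-17 and col-109) were higher, where 85 of all 114 tested members were.

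Inputs of alg-4; alg-3 animals differed from those of the CSR-1A strain in some members. Of 100 tested members 28 were higher, where 11.5% of all genes were, and 7 were lower, where 18.2% were, with medians of 0.33 for the members and 0.04 for all genes. With library size alone the split was 22 higher and 16 lower, or 57.9% higher in place of 80%, and the replicate block gave 43 and 19. col-41 had 10.6, 20.7 and 18.6 RPM in alg-4; alg-3 inputs, against 1.13 and 1.18 RPM in CSR-1A inputs, with a log2 fold change of 4.22 (SE 0.47). col-186 had 2.92, 1.85 and 2.77 RPM in alg-4; alg-3 inputs, against 29.3 and 27 RPM in CSR-1A inputs, with a log2 fold change of -3.11 (SE 0.23). Neither gene had overlapping groups. Of the members whose mRNA was lower in both csr-1a alleles, 6 of 11 tested were higher and 0 lower here, of those whose mRNA was tested and not called in both, 13 of 23 were higher and 0 lower, and of those whose mRNA was higher in both, 9 of 58 were higher and 6 lower. The medians of these classes were 1.71, 1.63 and -0.06. Ribosomal RNA took 21.62, 40.78 and 40.48% of the counts in alg-4; alg-3 inputs, against 7.728 and 18.74% in CSR-1A inputs, and its part in the result was not tested. The count of higher members was 10 without CSR-1A input replicate 2, 18 without CSR-1A input replicate 3 and 18 without alg-4; alg-3 input replicate 3. The count of lower members was 4, 2 and 2 without the same 3 libraries and 14 and 17 without alg-4; alg-3 input replicates 1 and 2.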

How the data were processed

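The deposited mRNA values are counts of fragments per gene, which the authors made with Trimmomatic 0.36, HISAT2 2.1.0 and featureCounts. The deposited small RNA values are expected counts, because the authors aligned clipped reads with Bowtie2 2.2.2 and let featureCounts divide shared reads. They were rounded for tests. Per the file headers the annotation was of WBcel235, no strand was used, and the CSR-1B, CSR-1A+B and total RNA libraries were counted with another featureCounts version than the others, the FLAG control among them. All tests came from edgeR 4.0.16 in R 4.3.3: counts were filtered by filterByExpr and scaled by TMM, a quasi-likelihood model was fitted to only the libraries compared, and p was adjusted by Benjamini-Hochberg. DESeq2 1.42.0 was the alternative. Tables and figures used Python 3.11.15, pandas 2.3.3 and matplotlib 3.10.9. The edgeR code was tested on simulated data with known changes.

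The members and gene lists were chosen with earlier results of these data known. Named were the 10 members per direction with the largest smaller change over the alleles and no overlap of libraries, the 5 highest in wild-type mRNA and in total small RNA, up to 2 per direction of each small RNA comparison, and col-12, col-13 and col-99. Of other lists, at most 2 genes per direction were named. Other members are named by position, overlap or class, after their values were seen. Sequences were read from the WBcel235 genome, with gene starts and reading frames of the Ensembl annotation. None of members on chromosome I is printed, so col-47, first among the lower members by the naming rule, is passed over there.

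Each input was a portion of the lysate used for its IP, so the same number pairs them by design. The main tests did not use this pairing, and a replicate block was an alternative. The correlation of their deviations from the group means was -0.0758 to 0.467 over IP and input pairs. The CSR-1A inputs carry the numbers 2 and 3 in the labels and other numbers in the file headers, so their pairing is uncertain. One HA control input, whose table holds part of the genes, was not used. Labels do not say whether replicates were separate cultures, so p-values measure the spread between these libraries. Intervals of counting error are not given, since PCR copies were not marked.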

Additional observations from a re-analysis of the deposited data

How the results depend on the processing

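Counts of col mRNAs changed by less than 1.5 times under DESeq2, other scalings, no filter on low counts, the replicate block, 1 fit of all libraries and a 2-fold minimum. With each library left out in turn, higher members numbered 84 to 89 in csr-1a(cmp135) and 58 to 82 in csr-1a(cmp143), and lower members 14 to 18 and 8 to 16. Leaving out replicate 3 of csr-1a(cmp143) and of wild-type together was chosen after seeing the data. Of 1100 alternatives for 95 named fold changes, 1052 kept direction and side of the threshold and 48 kept direction alone. Numbers of mRNA replicates are only a shared number (correlations of deviations -0.216 to 0.188), and the block gave 86 and 18 members in csr-1a(cmp135) and 66 and 14 in csr-1a(cmp143).

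Small RNA counts depended more on the setting, and the cause was not tested. In the CSR-1A IP, depleted members numbered 4 with DESeq2's size factors, 1 fit of all libraries or a minimum of 1 RPM, and 1 with library size alone, no filter or the replicate block, and 0 to 40 with 1 library left out. Library size alone gave 2 depleted in the alg-3/4 IP and 14 in the CSR-1A+B L4 IP. A minimum of 1 RPM, which admits more genes, gave 100 depleted in CSR-1A[15xAG], 85 in CSR-1B L4, 41 in CSR-1A+B L4, 68 in CSR-1B adult and 51 in CSR-1A+B adult IPs, and 21 enriched and 27 depleted for WAGO-1. RPM per mapped read, from the study's mapped totals, gave 0 enriched in CSR-1A[15xAG], 14 depleted in CSR-1A+B L4 and 5 depleted for WAGO-1. Keeping control genes gave 1 enriched in CSR-1B L4 and 16 for WAGO-1. In the HA control, DESeq2, no filter, the replicate block and 1 fit of all libraries each gave 2 enriched, while depleted members numbered 1 with library size alone, 6 with no filter and 2 with the block or 1 fit of all libraries. Between CSR-1B and CSR-1A+B L4 inputs, higher members numbered 1 with library size alone, 4 with no filter and 2 with the block, and lower ones 5 with the DESeq2 test and 0 in 1 fit of all libraries. Between alg-3/4 and CSR-1A inputs, the block gave 43 higher and 19 lower, library size alone 16 lower and no filter 17 lower. The replicate block moved no other count by over 1.5 times.

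With 1 library left out, depleted members numbered 42 to 58 in the alg-3/4 IP, 59 to 65 in CSR-1A[15xAG], 21 to 30 in CSR-1B L4, 16 to 31 in CSR-1A+B L4, 35 to 37 in CSR-1B adult, 16 to 36 in CSR-1A+B adult, 10 to 11 for WAGO-1 and 0 to 31 in the HA control. Enriched ones numbered 9 to 10 for WAGO-1, 0 to 20 in the HA control and 49 to 78 in the FLAG control. Between inputs the ranges were 20 to 23 higher and 56 to 64 lower (CSR-1B adult against L4), 24 to 26 and 56 to 61 (CSR-1A+B adult against L4), 0 to 3 and 6 to 21 (CSR-1B against CSR-1A+B) and 10 to 40 and 2 to 17 (alg-3/4 against CSR-1A). Shares of all genes were not determined for these small RNA counts with 1 library left out. With 2 libraries a group, a lone library was assumed to vary like the other group. Depth limits members at few RPM, and the CSR-1B L4 IP replicate 1 (570862 counts) most.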
